A study of Mus musculus with 2 samples.

Results

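Adventitial fibroblasts are the matrix-producing stromal cells in the cuffs around the large vessels and airways of the lung. Here they are the cells that the authors' deposited cell table places in cluster 18, which holds 1362 of the 22963 annotated cells of the neonatal mouse lung, 892 of them from control pups and 470 from pups given a Hedgehog-blocking antibody. Both groups of pups carried a heterozygous Gli1-CreERT2 allele, which puts a tamoxifen-inducible Cre recombinase under the control of the Hedgehog-responsive gene Gli1, and a heterozygous Rosa26 tdTomato reporter allele. Tamoxifen was given to every pup on postnatal day 1, followed on day 3 by an injection under the skin of either IgG or 5E1, an antibody against Hedgehog ligands, and the tissue was collected on day 6. Each condition pools 3 pups with some 20000 cells put on the instrument, so each is 1 library of unsorted lung cells with no replicate. No test of a difference between the conditions can therefore be made, the words higher and lower refer to these 2 libraries, and all intervals are 95% intervals for counting error only.

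Hedgehog ligands in the lung are made largely by the epithelium and act on the mesenchyme next to it. They bind the receptor Ptch1, which releases Smo and lets the Gli transcription factors switch on a small set of genes, among them Gli1, Ptch1 itself and the decoy receptor Hhip, so that the transcripts of these genes serve as a readout of the signal that a cell receives. Adventitial fibroblasts are known as a Gli1-expressing population, and their fibrils of type I, III and XIV collagen are coated by the small proteoglycans decorin and lumican.

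In cluster 18 the pooled cells gave 4788888 UMIs (unique molecular identifiers, each counting 1 captured transcript) in the IgG library and 2883780 in the 5E1 library, with medians of 4992 and 5601.5 UMIs per cell. Levels below are CPM, the UMIs of a gene scaled to the UMI total of the same group of cells, so that depth does not enter them. Of the kept cells 184 barcodes occur in both libraries, and 20 cells of cluster 18 carry such a barcode, but no barcode lies in cluster 18 in both. The libraries also differ in the sex of the pooled pups. Of the cluster's cells, 97.9% in the IgG library had an Xist UMI and no UMI of a Y-linked gene, against 34.7% in the 5E1 library, where 32.8% had a Y-linked UMI. Transcripts of other cell types differed too. The summed level of 7 erythroid markers was 1110 CPM in IgG and 176 CPM in 5E1, that of 10 AT2 markers, which include the surfactant genes, 1800 and 1129 CPM, that of 9 airway markers 2669 and 1586 CPM, and that of 9 mesothelial markers 151 and 284 CPM. All members of these 4 lists had at least 1 UMI in the cluster. Their part in the ratios below was not tested, except where a value without the cells concerned is given.

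The 4 marker genes fitted the label. Decorin (Dcn), a proteoglycan that binds collagen fibrils, had a level of 2550 CPM with IgG and 2217 CPM with 5E1, against 38.8 and 59.1 CPM in cluster 19, the largest of the clusters rich in the matrix fibroblast genes Tcf21, Limch1 and Npnt. Lumican (Lum), a related proteoglycan, stood at 299 and 205 CPM in cluster 18 and at 3.03 and 2.83 CPM in cluster 19. Collagen XIV (Col14a1) stood at 849 and 914 CPM, and Serpinf1, which encodes pigment epithelium-derived factor, at 439 and 416 CPM. The markers were not exclusive, since cluster 17, which carries mesothelial transcripts, also held Dcn and Col14a1. The level of Lum was lower in 5E1 by a log2 ratio of -0.55 and that of Dcn by -0.20, and none of the 4 markers passed 1.5-fold. The cells were clustered on such levels, so these are given as a description.

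**Figure D1:**
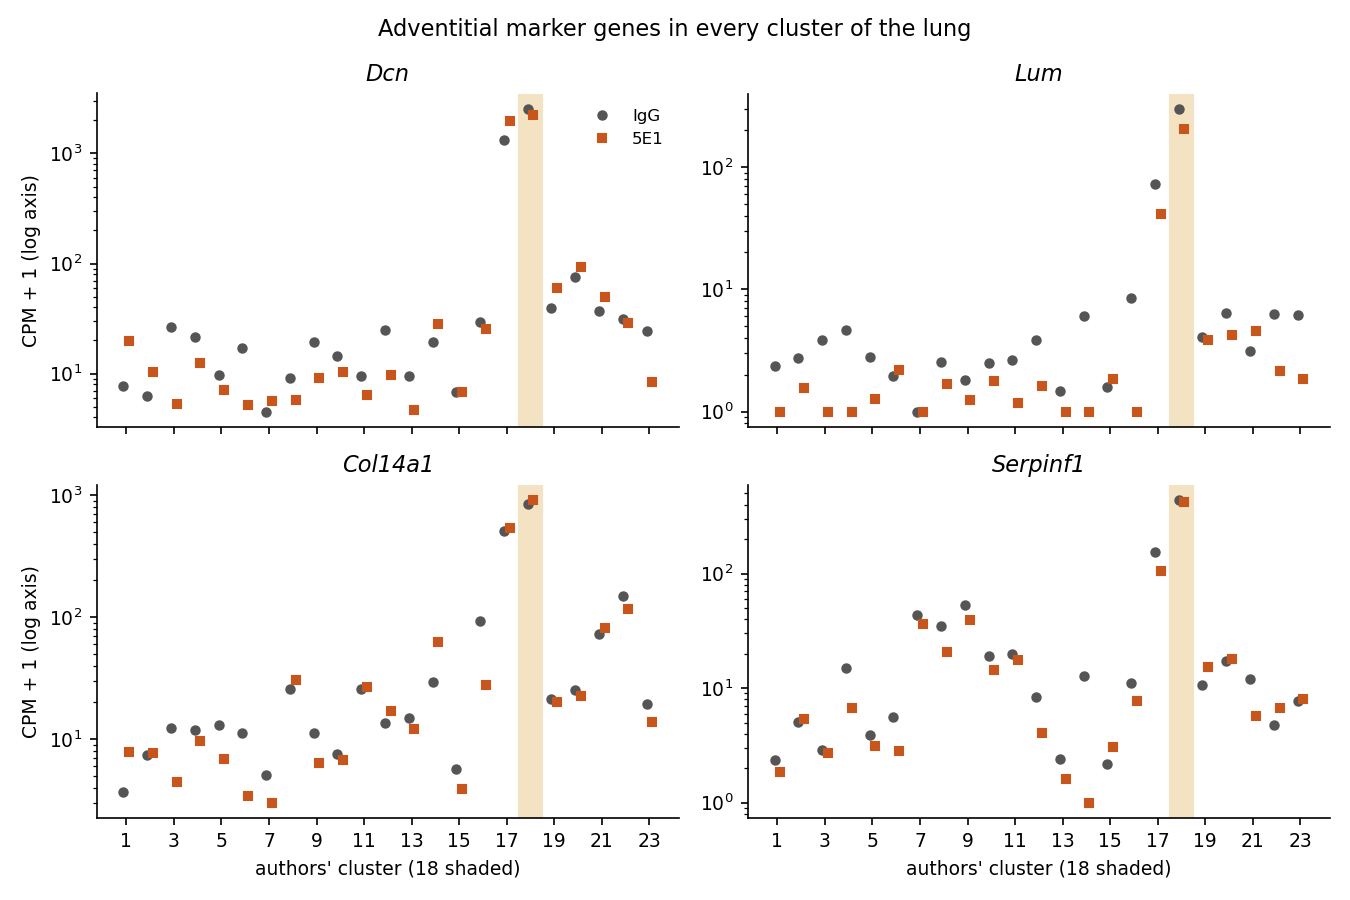
Level of the 4 marker genes, as CPM + 1 on a log axis, in each of the authors' 23 clusters, with the IgG library as circles and the 5E1 library as squares. Cluster 18, shaded, is highest for each gene, and cluster 17 comes next for all 4.

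Beyond the markers, the genes that stood out most from the other mesenchymal clusters fell into a few roles. Agtr2, the type 2 angiotensin receptor, led them at 136 CPM with IgG and 117 CPM with 5E1, 34.7 times the mean of the other mesenchymal clusters, with Lum next at 31.3 times. Secreted and matrix genes made up most of the rest. They include Mfap5, a microfibril protein, at 1671 and 1804 CPM, Col1a1 at 10050 and 10636 CPM, Cthrc1, a collagen triple helix protein, at 229 and 319 CPM, and the growth factor Ptn at 424 and 455 CPM. Twist2, a transcription factor of mesenchyme, was at 220 and 193 CPM, and Cygb, a globin of fibroblasts, at 726 and 712 CPM. Of the 20 leading genes only C1qtnf3 and Rbp4 differed by 1.5-fold or more between the libraries, the first higher and the second lower in 5E1.

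The cells of cluster 18 were not of 1 kind. A grouping of the cells by their expression gave a large group of 1214 cells and 3 small ones, and a further division of the large group, chosen after seeing the data, gave 2 large parts and 13 cells led by Schwann cell genes such as Mbp. The small groups were 75 dividing cells led by Ube2c and Prc1, 60 cells rich in neutrophil transcripts such as Stfa1, and 13 mesothelial-like cells led by Slurp1, Upk3b and Msln. The first large part has 679 cells, 440 from IgG and 239 from 5E1, and is led by Postn, the matricellular protein periostin, with the eosinophil chemokine Ccl11 and the transcription factor Ebf1. The second has 522 cells, 346 from IgG and 176 from 5E1, and is led by the chemokine Cxcl14 with the transmembrane collagen Col13a1. They are called Postn-rich and Cxcl14-rich cells below. The genes that divide them are a description and not a finding, and their numbers are not compared between libraries because Cxcl14 itself differed between these.

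All 4 markers of adventitial fibroblasts were present in both parts but at different levels. Dcn stood at 4126 CPM in Postn-rich and 689 CPM in Cxcl14-rich cells of the IgG library, and at 3438 and 642 CPM in those of the 5E1 library. Col14a1 stood at 1191 and 440 CPM in the IgG library, both far above the 20.1 CPM of cluster 19. Conversely, Limch1, a gene on the matrix fibroblast list, stood at 102 CPM in Postn-rich cells, 764 CPM in Cxcl14-rich cells and 1376 CPM in cluster 19 of the IgG library. Tcf21, a transcription factor of lung mesenchyme, ran in the same order at 178, 548 and 923 CPM. Gata6 and Osr1, transcription factors of visceral mesenchyme, ran in the opposite order, with Gata6 at 183 CPM in Postn-rich and 47.8 CPM in Cxcl14-rich cells. The Cxcl14-rich cells thus lay between the Postn-rich cells and cluster 19 on these genes. A division into 2 parts is not absolute. Of the IgG cells, 47.6% (44.3 to 51.0%) had UMIs of Lum, Postn or Ccl11 without any of Cxcl14, C1qtnf3 or Col13a1, 25.9% had the reverse, and 20.7% (18.1 to 23.6%) had UMIs of both sets. No doublet caller was run.

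**Figure D2:**
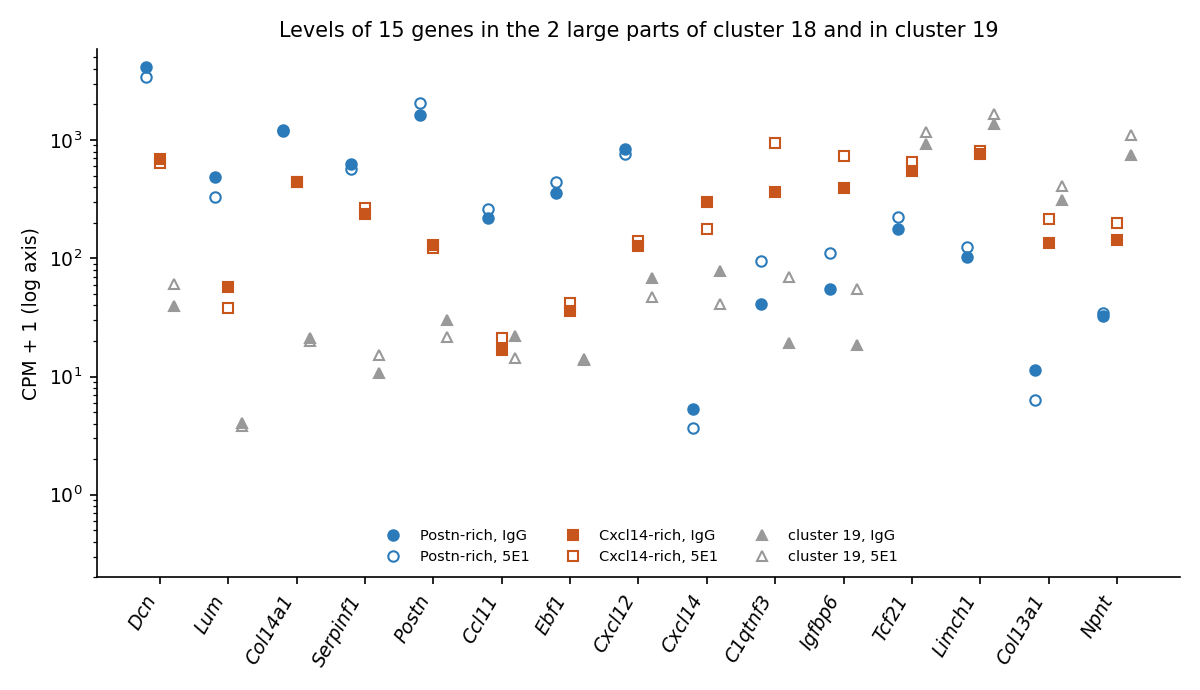
Level of 15 genes, as CPM + 1 on a log axis, in Postn-rich cells (circles), Cxcl14-rich cells (squares) and cluster 19 (triangles), with filled symbols for the IgG and open symbols for the 5E1 library. Squares lie between circles and triangles for Dcn, Col14a1, Tcf21 and Limch1, and above both for Cxcl14, C1qtnf3 and Igfbp6.

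The central comparison asked how these fibroblasts differed after Hedgehog ligand blockade. Over the whole cluster, Hedgehog targets were lower in 5E1, but less so than in clusters 19 and 20, the matrix fibroblast-like clusters most like it. Ptch1 (chr13:63508328-63573598, GRCm38, minus strand) gave 384 UMIs in IgG and 96 in 5E1, that is 80.2 CPM (72.4 to 88.6) and 33.3 CPM (27.0 to 40.7), a level 2.41-fold lower (1.92 to 3.04). Hhip (chr8:79965851-80058006, minus strand) gave 529 and 152 UMIs, 110 CPM (101 to 120) and 52.7 CPM (44.7 to 61.8), 2.10-fold lower (1.75 to 2.53). In cluster 19 the same ratios were 4.56-fold (3.46 to 6.14) for Ptch1 and 23.2-fold (15.4 to 36.7) for Hhip, and in cluster 20 they were 5.89-fold (3.96 to 8.95) and 16.2-fold (10.6 to 25.6). Of the targets, 5 of 6 measured were lower by 1.5-fold in cluster 19 and 3 of 3 in cluster 20, where 12.9% and 9.74% of all measured genes were, and none was higher, against 8.31% and 9.12% of all. In cluster 4, the B cell-led cluster used as a measure of free RNA, Hhip gave 22 and 2 UMIs and Ptch1 at 11.7 and 8.15 CPM. Of the 6 measured Hedgehog targets, that is those with at least 20 UMIs in the 2 libraries together, 3 were lower by 1.5-fold or more, with a median log2 ratio of -0.66. Of all 11518 genes measured in the cluster, 6.6% were lower and 5.65% higher by that fold, and the median log2 ratio over them was -0.01.

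The 2 large parts of the cluster differed from each other in these genes. In Postn-rich cells Hhip gave 196 UMIs in IgG and 127 in 5E1, a level of 83.7 CPM (72.4 to 96.3) against 83.9 CPM (69.9 to 99.8), so that the log2 ratio was 0.0055, with a ratio between 0.795 and 1.26. In Cxcl14-rich cells it gave 246 UMIs and 4 UMIs, a level of 149 CPM (131 to 169) against 4.50 CPM (1.23 to 11.5), which is 33.0-fold lower (12.7 to 122). The libraries overlapped within counting error in the first part and lay far apart in the second. Hhip UMIs came from 112 of 440 Postn-rich cells in IgG and 66 of 239 in 5E1, or 25.5% and 27.6%. In Cxcl14-rich cells they came from 119 of 346 and 4 of 176, or 34.4% and 2.27%. With each cell thinned to 1000 UMIs the shares were 7.34% and 6.78% in Postn-rich cells and 38 of 344 and 0 of 175 cells in Cxcl14-rich cells, where a count of 0 allows at most 2.09%. In cluster 4 the thinned shares were 2.67% and 0 of 426, so the Postn-rich cells of 5E1 lay above this background.

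Ptch1 ran the same way with a smaller gap. Its level in Postn-rich cells was 52.9 CPM (44.0 to 63.1) in IgG and 37.7 CPM (28.5 to 48.8) in 5E1, 1.41-fold lower (1.02 to 1.96). In Cxcl14-rich cells it was 114 CPM (98.7 to 132) and 29.3 CPM (19.1 to 42.9), 3.91-fold lower (2.58 to 6.14). Gli1, the transcription factor that gives the most direct readout of the pathway (chr10:127329882-127341974, minus strand), gave 51 and 32 UMIs in Postn-rich cells, 21.8 CPM (16.2 to 28.6) and 21.1 CPM (14.5 to 29.8). In Cxcl14-rich cells it gave 31 and 5 UMIs, 18.8 CPM (12.7 to 26.6) and 5.63 CPM (1.83 to 13.1). One Gli1 allele of these pups carries the Cre insertion, and how its transcripts were counted is not given in the sources used here. In the 5E1 library the Postn-rich cells thus held the highest Gli1 and Hhip levels of these parts and clusters 19 and 20. In the IgG library they held the lowest Hhip level of the same groups, but not the lowest Gli1 level. A Gli1 UMI was found in 10.9% of Postn-rich and 8.38% of Cxcl14-rich IgG cells. In clusters 19 and 20 the shares of IgG cells were 5.50% and 3.57%.

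Foxl1, a forkhead transcription factor of mesenchyme next to epithelium (chr8:121127940-121130644, plus strand), differed in direction. Its level in Cxcl14-rich cells was 54.5 CPM (43.8 to 67.0) in IgG and 6.76 CPM (2.48 to 14.7) in 5E1, from 90 and 6 UMIs, and in Postn-rich cells 13.2 CPM (8.99 to 18.8) and 22.5 CPM (15.6 to 31.4), from 31 and 34 UMIs. Foxf1, another forkhead gene of this family of targets, was at 73.2 and 42.8 CPM in Cxcl14-rich cells, 1.71-fold lower (1.18 to 2.53), and at 27.8 and 21.8 CPM in Postn-rich cells, 1.27-fold lower (0.825 to 2.00). Of the target list, 5 of 5 measured targets were lower by 1.5-fold or more in Cxcl14-rich cells, where 11% of all measured genes were, with a median log2 ratio of -1.94. Of 6 measured in Postn-rich cells none was, where 7.04% of measured genes were, and the 1 past the fold in the other direction, as 5.87% of measured genes were, was Foxl1. The median log2 ratio there was -0.10.

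**Figure D3:**
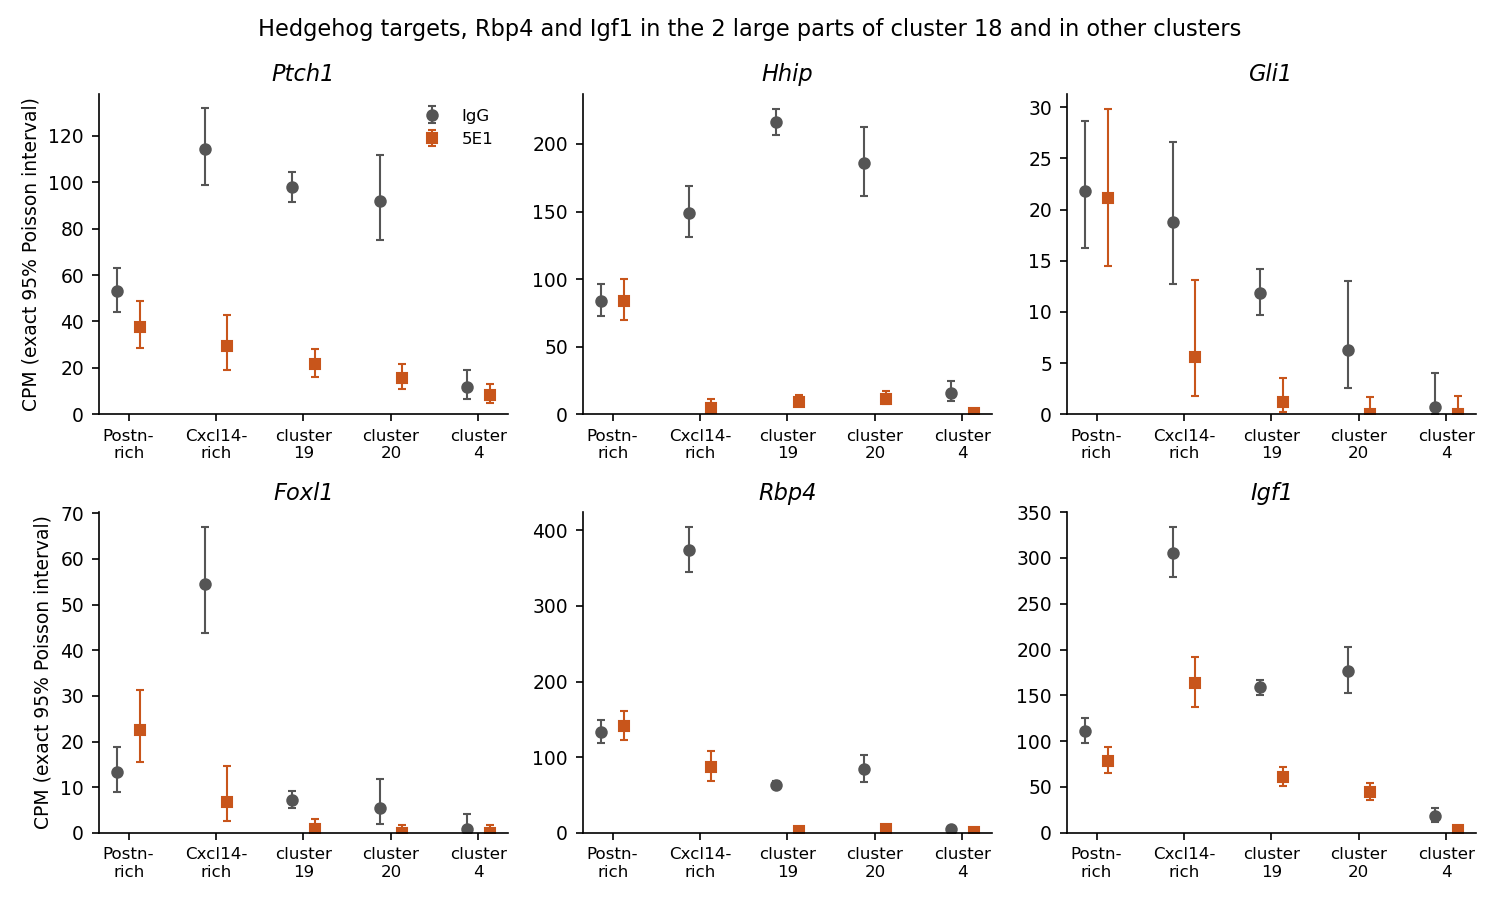
Level in CPM of 4 Hedgehog targets, Rbp4 and Igf1 in Postn-rich and Cxcl14-rich cells, in the matrix fibroblast-like clusters 19 and 20 and in the B cell-led cluster 4, with circles for IgG, squares for 5E1 and exact 95% Poisson intervals as bars. For Hhip, Gli1 and Rbp4 the 2 symbols overlap in Postn-rich cells and lie apart in Cxcl14-rich cells.

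Since the parts were first divided on genes that include these targets, the division was repeated after leaving out 3415 genes, namely the Hedgehog lists, the genes with the most extreme ratios and every gene past 1.5-fold in cluster 18 or 19. This gave 664 cells, of which 644 had been Postn-rich, and 531, of which 501 had been Cxcl14-rich. Hhip had a ratio of 0.945 (0.748 to 1.19) in the former and was 21.1-fold lower (9.55 to 58.0) in the latter, and Ptch1 was 1.52-fold (1.10 to 2.13) and 3.60-fold (2.40 to 5.61) lower. With only cells that had an Xist UMI and no Y-linked UMI, Hhip had a ratio of 0.80 (0.557 to 1.13) over 433 and 88 Postn-rich cells, and gave 244 and 1 UMIs over 338 and 55 Cxcl14-rich cells. Ptch1 in the same cells had a ratio of 0.873 (0.557 to 1.33) in the Postn-rich part, where the libraries overlapped within counting error. In the Cxcl14-rich part its ratio was 0.188 (0.0680 to 0.416). With only cells holding under 2 UMIs of endothelial, epithelial or immune genes, Hhip was at 84.7 and 77.7 CPM in Postn-rich and at 152 and 5.16 CPM in Cxcl14-rich cells. The difference of the 2 log2 ratios of Hhip was 4.89 (3.50 to 6.27, counting error only), that of Ptch1 1.46 (0.72 to 2.20) and that of Gli1 1.59 (0.14 to 3.04). Whether these differences hold between animals was not tested, since each library pools its pups. Erythroid transcripts also differed by part, with a median log2 ratio of -3.69 over 4 measured markers in Postn-rich and -0.23 in Cxcl14-rich cells, and their part in the ratios was not tested.

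The genes that receive and carry the signal differed little over the whole cluster. None of 13 measured transducers and co-receptors passed 1.5-fold in the whole cluster, where 5.65% of all measured genes were higher and 6.6% lower. With so few members this count does not set the list apart from all genes. In Postn-rich cells 1 of 13 was higher and 2 were lower, against 5.87% and 7.04% of all measured genes. In Cxcl14-rich cells none of 11 was higher and 2 were lower, against 8.01% and 11% of all measured genes. Smo, which passes the signal into the cell, was at 65.3 and 66.1 CPM in Postn-rich cells and at 75.0 and 93.5 CPM in Cxcl14-rich cells. The co-receptors Boc and Cdon were also present in both parts, with Boc at 79.0 and 77.3 CPM in Postn-rich and 107 and 119 CPM in Cxcl14-rich cells, and Cdon at 35.4 and 29.1 CPM and at 24.2 and 22.5 CPM. Gas1, another co-receptor, was higher in 5E1 in both, at 283 and 363 CPM in Postn-rich and 260 and 373 CPM in Cxcl14-rich cells, though under 1.5-fold. Gpc3, a glypican that competes for Hedgehog ligand, was at 743 and 767 CPM in Postn-rich cells and at 602 and 376 CPM in Cxcl14-rich cells, 1.60-fold lower (1.41 to 1.82).

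Rbp4, the carrier protein of retinol (chr19:38116629-38125281, minus strand), was among the genes with the lowest ratios. Over the whole cluster it gave 1041 UMIs in IgG and 318 in 5E1, 217 CPM (204 to 231) and 110 CPM (98.5 to 123). In Postn-rich cells the levels were 134 CPM (119 to 149) and 141 CPM (123 to 162), in Cxcl14-rich cells 373 CPM (345 to 404) and 86.7 CPM (68.4 to 108), 4.31-fold lower (3.39 to 5.53), and in cluster 19 63.4 and 2.83 CPM. In the Cxcl14-rich cells with Xist and no Y-linked UMI the levels were 376 and 28.8 CPM, from 613 and 8 UMIs, which is 13-fold lower. Promoter windows, from 250 bases before to 50 bases after each start in the RefSeq table of build GRCm38.p6, were searched on both strands for the GLI-type octamer GACCACCC, which occurs in 0.807% of all 32851 windows. Of the named genes 45 were looked up, and the table held 31 windows for 29 of them. The named genes without a window were not searched, and which they are is not given here. Of the 31 windows 1, of Rbp4, held the octamer. It lies 221 bases before a start, within the 30 bases printed below, which span chr19:38125014-38125043 on the minus strand. They are shown, with the octamer in capitals, because this was the only match among the windows searched for named genes. Rbp4 is outside the target list yet had one of the lowest ratios.
Rbp4 window: ggctccaccgaGACCACCCtgagcggagct
This match is a description of the letters and not a site of binding, and another annotated start of Rbp4 lies upstream of it.

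By rule, the 12 genes with the lowest and the 12 with the highest ratio in the cluster were examined, among 2742 genes with at least 200 UMIs and 50 CPM, and Ptch1, Hhip and Rbp4 were among the lowest. Igf1, the growth factor, was at 187 CPM (175 to 199) in IgG and 104 CPM (92.3 to 116) in 5E1. It was lower in both parts, by 1.41-fold (1.13 to 1.77) in Postn-rich and 1.87-fold (1.55 to 2.27) in Cxcl14-rich cells. Wfdc1, a secreted protein with a whey acidic protein domain, was at 103 and 7.88 CPM in Cxcl14-rich cells, from 170 and 7 UMIs, and was at 76.4 and 49.5 CPM in Postn-rich cells. Nnat, an imprinted proteolipid gene, gave 152 and 18 UMIs in Cxcl14-rich cells and 66 and 30 in Postn-rich cells. The tetraspanin Tspan11 and the transglutaminase Tgm2 were 3.41-fold (2.34 to 5.12) and 3.42-fold (2.17 to 5.63) lower in Cxcl14-rich cells, against 1.51-fold (1.22 to 1.88) and 1.68-fold (1.15 to 2.52) in Postn-rich cells. The heat shock gene Hspa1a was lower in both parts to a similar size, 2.92-fold (2.30 to 3.75) and 3.74-fold (2.84 to 5.02), with 847 and 162 UMIs over the cluster. Fdps, an enzyme of isoprenoid synthesis, was at 56.2 and 30.2 CPM over the cluster, and Cxcl14 at 120 and 62.4 CPM. The lowest ratio of all, that of the monocyte chemokine Ccl2, came from few cells, with 337 UMIs in 19 IgG cells, 208 of them in 1 cell, and 28 UMIs in 8 cells of 5E1. Without the top cell of each library it was 5.54-fold lower (3.19 to 10.4), against 7.25-fold with it.

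Among the highest, C1qtnf3, an adipokine-like secreted protein, was higher in both parts. It was at 164 CPM (152 to 175) in IgG and 362 CPM (340 to 385) in 5E1 over the cluster, with ratios of 2.34 (1.79 to 3.07) in Postn-rich and 2.60 (2.34 to 2.89) in Cxcl14-rich cells. In Postn-rich cells of 5E1, 33 of its 142 UMIs lay in 1 cell, and the ratio without that cell is not given. Txnip, a glucose-responsive inhibitor of thioredoxin, had ratios of 2.08 (1.55 to 2.81) and 2.53 (1.81 to 3.55), Igfbp6, which binds IGF2, 2.03 (1.60 to 2.58) and 1.86 (1.66 to 2.07), and Camk2n1, an inhibitor of CaM kinase II, 1.64 (1.38 to 1.94) and 1.89 (1.54 to 2.33). Others were mainly higher in Cxcl14-rich cells. Cdo1, cysteine dioxygenase, was at 58.7 and 221 CPM there, a ratio of 3.76 (2.93 to 4.85), against 110 and 157 CPM in Postn-rich cells, a ratio of 1.43 (1.20 to 1.72). The transcription factor Cebpd had ratios of 2.91 (2.60 to 3.26) and 1.26 (1.15 to 1.38), and H19, an imprinted noncoding RNA, 2.78 (2.46 to 3.13) and 1.23 (1.10 to 1.38). Klf9 had ratios of 2.12 (1.78 to 2.52) and 1.45 (1.25 to 1.68). Gabbr1, a GABA receptor subunit, went the other way, with 1.16 (0.763 to 1.75) in Cxcl14-rich and 2.03 (1.54 to 2.67) in Postn-rich cells, and Slit3, a guidance ligand, was at 45.1 and 74.2 CPM over the cluster.

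The genes with the 2 highest ratios had many of their UMIs in the mesothelial-like cells. Sfrp2, a secreted Wnt modulator, had 118 UMIs in IgG and 203 in 5E1, of which 23 and 144 came from the 6 and 7 mesothelial-like cells. Rspo1, a Wnt agonist that is also on the mesothelial marker list, had 105 and 168 UMIs, of which 58 and 122 came from the same cells. Over the 1214 cells of the large group alone the log2 ratio of Sfrp2 was 0.19, against 1.51 in the whole cluster, and that of Rspo1 was 0.87, against 1.41. The mesothelial list as a whole had 8 of 9 measured members higher by 1.5-fold in the cluster, but 1 higher and 3 lower of 5 measured in the large group, where 5.34% of all measured genes were higher and 6.8% lower.

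**Figure D4:**
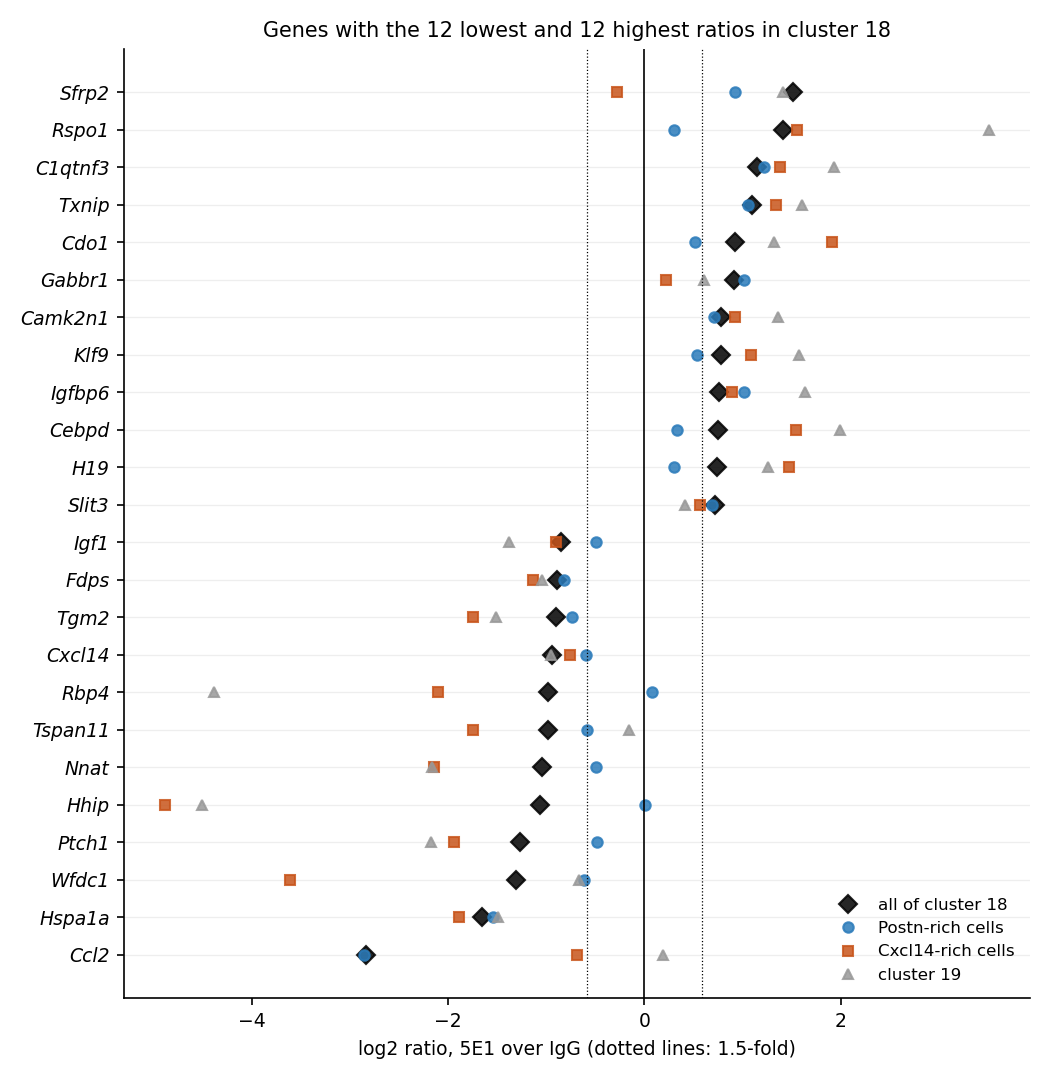
Log2 ratio of 5E1 over IgG of the 24 genes, sorted by their ratio in the whole cluster (diamonds), with Postn-rich cells as circles, Cxcl14-rich cells as squares and cluster 19 as triangles. For Hhip, Rbp4 and Ptch1 the circle lies nearer to 0 than the square and the triangle do, and for Hspa1a, C1qtnf3 and Txnip circle and square lie close together.

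The same limits applied within each part gave 10 lowest and 10 highest genes each. In Cxcl14-rich cells Hhip, Rbp4 and Ptch1 were followed by Hspa1a and by Pltp, a phospholipid transfer protein, which was 3.48-fold lower from 272 and 42 UMIs. Cdkn1a, the cell cycle inhibitor p21, was 2.31-fold lower (1.73 to 3.13) there and at 107 and 116 CPM in Postn-rich cells. Among the highest in Cxcl14-rich cells were Dusp1, a phosphatase of MAP kinases, at 211 and 535 CPM, Gdf10, a member of the TGF-beta superfamily, at 105 and 253 CPM, and Aspn, the proteoglycan asporin, at 391 and 863 CPM. In Postn-rich cells Gdf10 was at 123 and 104 CPM and Aspn at 568 and 646 CPM. The lowest ratios of the Postn-rich cells after Ccl2 and Hspa1a were small, the next being Fdps at 1.77-fold lower. With all groups thinned to the same number of UMIs, 2.55% of 2788 well-measured genes were past 1.5-fold in Postn-rich cells, 5.31% in Cxcl14-rich cells and 9.90% in cluster 19. A share of this kind holds sampling noise, which the thinning makes alike in the 3 groups.

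The lists of genes with known roles are read against the shares over all measured genes of the cluster, 5.65% higher and 6.6% lower. The collagens that make up most of it, Col1a1, Col1a2 and Col3a1, had log2 ratios of 0.08, -0.05 and 0.09. Of 24 measured collagens 3 were higher and 1 lower by 1.5-fold, against 5.65% and 6.6% of all measured genes, with Col12a1 at 29.7 and 45.4 CPM and Col23a1 at 49.7 and 27.0 CPM as examples. None of 23 elastic fibre genes and none of 25 proteases and their inhibitors passed 1.5-fold. Elastin (Eln) was at 8308 and 11547 CPM in the cluster, a ratio of 1.39 (1.37 to 1.41), with 1.37 (1.34 to 1.40) in Postn-rich and 1.51 (1.48 to 1.54) in Cxcl14-rich cells. Of 27 measured genes of adventitial and universal fibroblasts 3 were higher and 1 lower. Pi16 and Ly6a, marks of universal fibroblasts, were at 129 and 168 CPM and at 148 and 177 CPM in Postn-rich cells, and at 63.5 and 36.0 CPM and at 30.3 and 11.3 CPM in Cxcl14-rich cells. In the latter 7 of 23 measured genes of that list were lower and 2 higher, where 11% and 8.01% of all measured genes were.

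Among the small leucine-rich proteoglycans, which bind collagen and growth factors, 1 of 10 measured was higher and 1 lower. Biglycan (Bgn) was at 2968 and 2977 CPM and osteoglycin (Ogn) at 487 and 483 CPM, and the higher one was Ecm2, at 25.7 and 44.0 CPM. Complement genes were split, with 3 of 16 higher and 3 lower. The higher ones were C3, C4b and Cfb. C3 gave 75 UMIs with IgG and 127 with 5E1, of which 32 and 109 came from the 6 and 7 mesothelial-like cells, and over the 1214 cells of the large group it gave 32 and 9 UMIs, so that the direction turned. C4b gave 32 and 34 UMIs, of which 8 and 21 came from the mesothelial-like cells, and its log2 ratio in the large group was -0.23. The lower ones were the 3 C1q chains, which macrophages make. C1qa gave 178 and 56 UMIs, of which 115 and 47 came from the cells rich in neutrophil transcripts. The summed level of the macrophage and monocyte markers was 330 CPM with IgG and 234 CPM with 5E1, a difference whose part in this was not tested. Of 19 contractile genes 4 were lower and none higher, against 6.6% and 5.65% of all measured genes, among them Myh11, smooth muscle myosin, at 28.0 and 16.3 CPM. Of 14 heat shock genes 3 were lower, and of 18 immediate early genes 2, Fos and Dusp1, were higher, both lists of genes that cell isolation is known to induce.

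Signalling lists were mixed, with 5.65% of all measured genes higher and 6.6% lower as the background of each count. Of 18 measured IGF genes 5 were higher and 1, Igf1, lower, with Igf2 at 45.7 and 70.0 CPM and Pappa, a protease that frees IGF from its binding proteins, at 11.9 and 22.2 CPM. Of 32 BMP and TGF-beta genes 3 were higher and 2 lower. The lower ones include the ligand Bmp7, at 19 and 8.67 CPM. Of 22 FGF and PDGF genes 3 were higher and 2 lower, with Fgfr3 2.46-fold lower (1.72 to 3.58), and the receptors Pdgfra and Pdgfrb at log2 ratios of -0.00 and 0.20. Of 22 Wnt genes 2 were higher and 2 lower, where the higher ones are Sfrp2 and Rspo1 and the lower ones include the Wnt inhibitor Wif1, at 95.6 and 32.7 CPM in Cxcl14-rich cells. Over the cluster 39 of the 71 Wif1 UMIs of 5E1 lay in 1 dividing cell, and without the top cell of each library its level was 3.16-fold lower (2.15 to 4.77), against 1.52-fold with it. Of 14 glucocorticoid-responsive genes 5 were higher and 1 lower, against 5.65% and 6.6% of all measured genes, with a median log2 ratio of 0.31. The median of that list was 0.27 in Postn-rich and 0.73 in Cxcl14-rich cells.

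The interferon, chemokine and S phase lists had more members lower than higher, where 6.6% of all measured genes were lower and 5.65% higher. Of 25 measured interferon response genes 5 were lower and none higher. Psmb8, a subunit of the immunoproteasome, was 2.62-fold lower (1.80 to 3.93) and Isg15, an interferon-induced modifier, 2.97-fold lower (1.69 to 5.57). Of the 148 and 34 Psmb8 UMIs, 49 and 4 came from the cells rich in neutrophil transcripts. Of 18 chemokines and cytokines 5 were lower and none higher. Cxcl5, a neutrophil chemokine, had 74 and 8 UMIs, of which 73 and 8 came from Postn-rich cells, where the level was 5.90-fold lower (2.84 to 14.2). Of the IgG UMIs 50 lay in 1 cell, and without the top cell of each library 23 and 6 UMIs remained in Postn-rich cells, 2.47-fold lower (0.977 to 7.41). Of 25 S phase genes 9 were lower and none higher, with a median log2 ratio of -0.45, while of 26 G2 and M phase genes 1 was lower with a median of 0.02. The UMIs of the latter lay largely in the dividing cells, for Ube2c 362 of 422 in IgG and 197 of 219 in 5E1. Over the 1214 cells of the large group 7 of 14 measured G2 and M phase genes were lower and none higher. Their median log2 ratio there was -0.56, where 6.8% of all measured genes were lower and 5.34% higher. In cluster 19 of the same libraries, 25 of 26 G2 and M phase genes were lower by 1.5-fold, where 12.9% of its measured genes were. Among 42 mesenchymal transcription factors 1 was higher, Foxp1, at 113 and 170 CPM, and 1 lower.

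**Figure D5:**
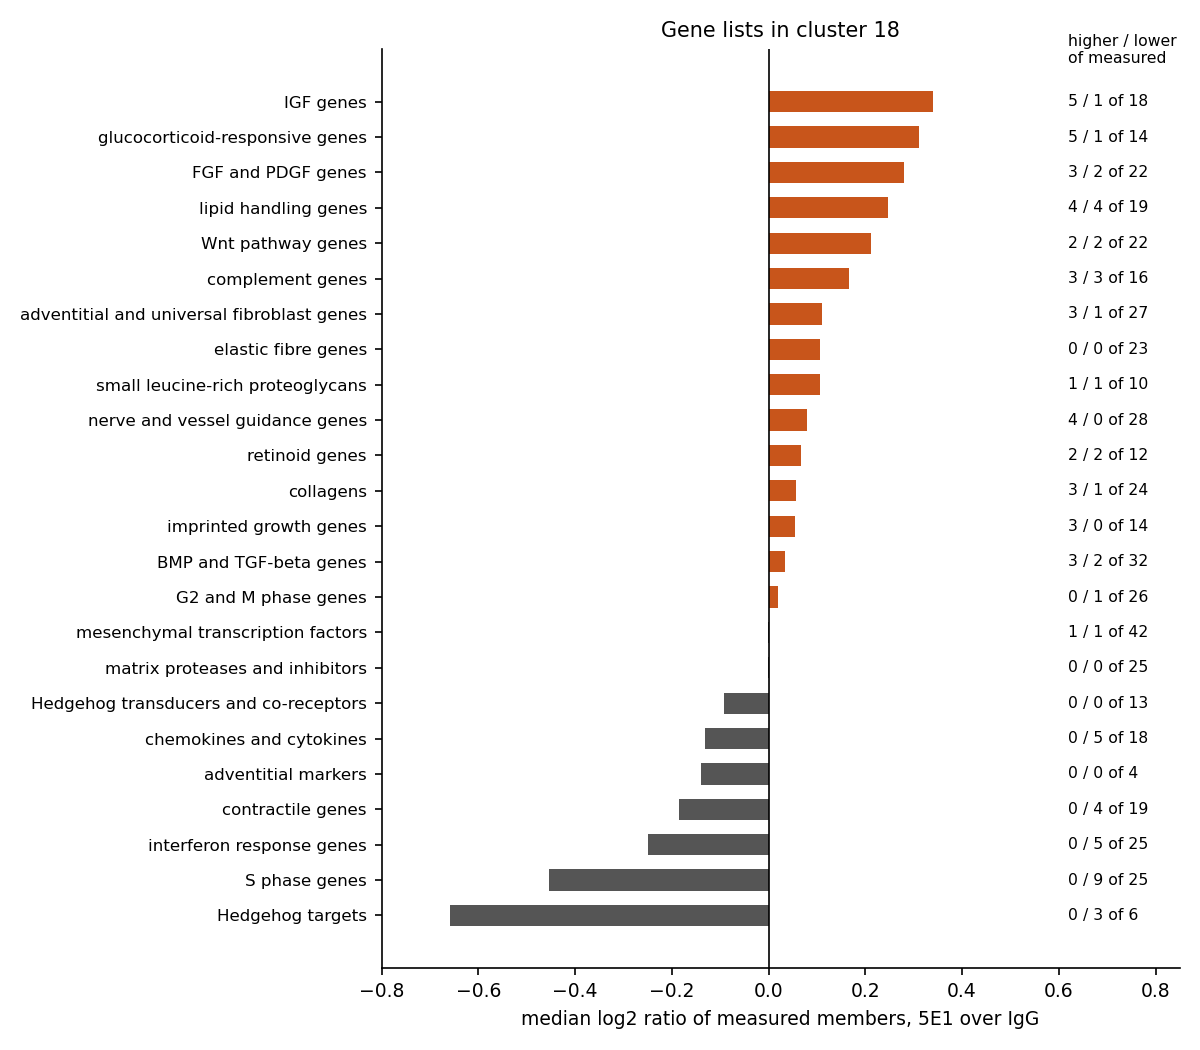
Median log2 ratio of 5E1 over IgG of the measured members of the marker list and of the lists by role with 3 or more measured members in cluster 18, with the numbers higher and lower by 1.5-fold or more beside each bar. Markers of other cell types are not plotted. Among the lists plotted the Hedgehog targets have the lowest median, -0.66, and the elastic fibre and protease lists have no member past the fold.

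Against the matrix fibroblast-like cells the cluster as a whole differed less between the libraries. Cluster 19 held 1854 cells of IgG and 551 of 5E1, and cluster 20 held 196 and 414. The part of these unlike cell numbers in the ratios of clusters 19 and 20 was not tested. Of the 12 genes with the lowest ratios in cluster 19, 10 were lower in cluster 18 too, with a median log2 ratio of -0.72 against -2.03. Of its 12 highest, 11 were higher in cluster 18, with 0.72 against 1.68. All 24 had a log2 ratio of smaller absolute size in cluster 18 than in cluster 19. Since the values of cluster 19 chose these genes, that count cannot show a difference between the clusters. At equal numbers of UMIs, 3.41% of 3578 genes were past 1.5-fold in cluster 18, 11% in cluster 19 and 7.71% in cluster 20. These comparisons share the same 2 libraries, and no test of the difference between clusters over animals was possible.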

How the data were processed

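Single-cell RNA of whole lung was measured in 2 libraries, 1 per condition. The deposited matrices give, for each barcode and gene, UMI counts that are not normalized, and the submitters' processing notes name Cell Ranger 3.1.1 and mm10, while the matrix headers name software 3.0.0. The other values used are the cluster number and library of each cell in the authors' deposited table, whose header is shifted by 1 column. The sources used here do not give alignment settings.

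UMIs were summed per library over cells, scaled to the group's total (CPM), and given exact Poisson intervals, and ratios exact conditional binomial intervals. Shares have Clopper-Pearson intervals. Log2 ratios add 0.5 UMI to each sum. Genes with at least 20 UMIs were measured, and 1.5-fold was the limit for counts. Named genes were the markers, the Hedgehog lists, the 12 extremes per direction (200 UMIs, 50 CPM, without mitochondrial, ribosomal, haemoglobin, immunoglobulin, predicted or sex-linked genes or genes under 5% of the highest cluster), the leading genes and list members. Pi16, Ly6a, Dpt, Pdgfrb, Limch1, Tcf21, Gata6, Osr1, Postn, Ebf1 and genes named only within the parts were chosen after their values were seen. Parts came from k-means (k of 4, then 3) on 30 principal components of 2000 variable genes (scikit-learn 1.9.0, Python 3.11.15). No doublet caller was run. Coordinates are from GENCODE for GRCm38, matched by Ensembl ID. Members and lists were chosen with earlier results of these data known. Of 747 list genes, 8 were not used here. The ratio code was tested on simulated data. The values of some list members are not reported here.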

Additional observations from a re-analysis of the deposited data

Results flagged for a closer look

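Among 90 genes named in the text, together with the Hedgehog lists, 19 had log2 ratios of 5E1 over IgG of opposite sign in the Postn-rich and the Cxcl14-rich cells while the counting interval of the difference excluded 0. Some of the 90 genes were named after their values in the parts were seen. The share over all measured genes is not given here, so the count of 19 is a description only. Beyond counting error the difference was not tested, since each condition is 1 library. Each pair of values below is for Postn-rich and then Cxcl14-rich cells.

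Of the Hedgehog lists and Rbp4, Hhip had 0.0055 and -4.88, Rbp4 0.082 and -2.10, Foxl1 0.76 and -2.90, and Gpc3 0.047 and -0.68. Scube2, a secreted protein that helps to release Hedgehog ligand, had -1.99 and 0.54, from 21 and 3 UMIs in the former and 45 and 35 in the latter. Other genes that were lower in Cxcl14-rich cells were Cdkn1a with 0.12 and -1.20, the universal fibroblast genes Ly6a with 0.26 and -1.37 and Pi16 with 0.38 and -0.80, Cthrc1 with 0.45 and -0.59, Twist2 with 0.16 and -0.33, Postn with 0.34 and -0.087, and Sfrp2 with 0.92 and -0.28. Those higher in Cxcl14-rich cells were Gdf10 with -0.24 and 1.27, Ptn with -0.17 and 0.77, Col13a1 with -0.90 and 0.68, the fibrillar collagens Col1a1 with -0.069 and 0.44 and Col1a2 with -0.18 and 0.29, Ogn with -0.13 and 0.23, and Serpinf1 with -0.13 and 0.17. Postn and Col13a1 were among the genes that divide the parts. Values near 0, such as that of Hhip in Postn-rich cells, carry no direction.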

How the results depend on the processing

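All 24 genes with the most extreme ratios kept their direction under median-ratio scaling, thinning, equal weight per cell and a pseudocount of 5 UMIs. All 24 also did so without cells with other-lineage UMIs, in sub-cluster 1 alone, without the top cell and with Xist-only cells. With 4 sub-clusters weighted alike 23 did, in Postn-rich cells alone 22 and in Cxcl14-rich cells alone 23. The genes were chosen for their ratios in these same cells, so a kept direction was largely fixed in advance. Past 1.5-fold in the same direction were 20 with thinning and 15 with sub-clusters weighted alike. In Postn-rich cells alone 14 were, and in Cxcl14-rich cells alone 21. The count of genes higher in 5E1 by 1.5-fold or more was 651, and 132 with at least 100 UMIs, 166 at 2-fold and 1254 with sub-clusters weighted alike. That of genes lower in 5E1 by 1.5-fold or more was 760, and 199, 239 and 1565 under the same settings, 1195 with Xist-only cells and 378 with the pseudocount of 5 UMIs. With sub-clusters weighted alike the log2 ratio of Hhip was -1.55, of Rbp4 -1.35, of H19 -0.10, and the median log2 ratio of Hedgehog targets -1.02. Rbp4 had -0.67 with cells thinned to 1000 UMIs and -1.18 with Xist-only cells, and the target median -1.19 and -0.83. In Postn-rich cells alone, chosen after seeing the data like the other division settings, Ptch1 had -0.49, Hhip 0.0055, Rbp4 0.082, Foxl1 0.76 and the target median -0.10, and in those found again without the moved genes -0.60, -0.079, 0.063, 0.84 and -0.21. In Cxcl14-rich cells alone Ptch1 had -1.94, Hhip -4.88, Rbp4 -2.10, Sfrp2 -0.28 and the target median -1.94, and in those found again -1.83, -4.29, -2.02, -0.24 and -1.83. Within single sub-clusters the log2 ratio of Ptch1 was -2.03 in the dividing cells, from 45 UMIs in IgG and 5 in 5E1. That of Hhip was -2.44 in the dividing, -0.68 in the neutrophil-rich and -2.07 in the mesothelial-like cells, the last from 16 and 7 UMIs. That of Rbp4 was -0.78 in the dividing and -1.61 in the neutrophil-rich cells. In the mesothelial-like cells Ptch1 had -0.93 from 2 and 2 UMIs and Rbp4 -2.07 from 5 and 2 UMIs. Both genes lie under the limit of 20 UMIs there, so these values carry no direction. Igfbp6 had -0.73 in the dividing and -0.39 in the mesothelial-like cells, and H19 had -0.076 in the neutrophil-rich cells. In the mesothelial-like cells H19 had -1.54 from 14 and 9 UMIs and Tgm2 0.21 from 7 and 16 UMIs. The cause of these shifts was not tested, except that fewer genes are measured with more UMIs required and the fold sets the count. No paired analysis was possible because each condition has 1 library. With 470 cells in 5E1, genes under 20 UMIs could not be compared.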
